A study of Mus musculus with 6 samples.

Results

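Genes that build the red cell program, 8 in number, were followed in whole mouse bone marrow and in cells sorted from it: the transcription factor genes Gata1, Klf1, Tal1, Nfe2 and Gfi1b, the cofactor genes Lmo2 and Zfpm1, and Epor, which encodes the erythropoietin receptor and is no transcription factor. They were chosen by name, with earlier results of these data known. They are 8 of the 18193 genes that the array annotation names by a single symbol, and they hold 9 of its 45101 probe sets. Each gene is represented by its probe set with the highest mean over the 6 arrays. Zfpm1 alone had another probe set, which is given beside the first.

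The marrow came from femurs of adult mice hemizygous for a transgene in which renin sequences drive green fluorescent protein (GFP). On each of 3 occasions 4 to 5 male and female mice, 3 to 6 months old, were pooled. An unsorted portion of the pool gave the presort sample (n = 3) and the GFP-positive cells gave the sorted sample (n = 3). All 6 samples therefore carry the transgene, and presort marrow still holds the GFP-positive cells. Light scatter gates removed erythrocytes and debris from the sorted fraction, doublets were excluded, and the GFP gate let in 0.1% of cells from mice without the transgene. Each sample is a pool of animals, so the spread between replicates is that between pools. The sorted cells were selected by light scatter and reporter activity rather than by a lineage marker. Presort samples were not sorted, so the removal of erythrocytes and the GFP selection cannot be told apart in any difference.

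Red cell formation from progenitors depends on a small set of nuclear factors. Gata1, a zinc finger protein, binds GATA motifs and forms a complex with Tal1, a basic helix-loop-helix protein, through the bridging protein Lmo2. Zfpm1 (Friend of GATA) binds Gata1 itself. Klf1 binds CACC boxes in globin and membrane protein genes, Nfe2 binds globin control regions as a dimer with a small Maf protein, and Gfi1b is a repressor. Epor receives the erythropoietin signal that keeps erythroid progenitors alive. Several of these factors also act in megakaryocytes, mast cells or eosinophils.

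Promoter windows are shown because members of this network are known to bind each other's genes. RefSeq windows of the mouse build GRCm38.p6, 250 bases before the annotated start, matched 6 of the 8 genes in 7 windows; Nfe2 and Lmo2 are named only. A GATA motif, here GATAA or GATAG with A or T before it, was read on both strands. It occurred in 4 of the 7 windows, from 4 of the 6 genes, against 26.5% of all 32851 windows. Matches are capitalised in the following windows, each written 5′ to 3′ on the strand of its gene. A match is a description of letters and not of binding. Klf1 lies at chr8:84901732-84901981 on the plus strand, Epor at chr9:21963577-21963826 on the minus strand, Gfi1b at chr2:28621983-28622232 on the minus strand, and the upstream Tal1 window at chr4:115056176-115056425 on the plus strand.
Klf1: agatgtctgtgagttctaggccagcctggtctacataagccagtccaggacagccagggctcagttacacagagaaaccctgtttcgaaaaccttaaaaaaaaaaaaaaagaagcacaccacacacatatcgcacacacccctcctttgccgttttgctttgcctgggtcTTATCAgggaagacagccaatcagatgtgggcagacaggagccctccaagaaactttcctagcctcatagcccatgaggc
Epor: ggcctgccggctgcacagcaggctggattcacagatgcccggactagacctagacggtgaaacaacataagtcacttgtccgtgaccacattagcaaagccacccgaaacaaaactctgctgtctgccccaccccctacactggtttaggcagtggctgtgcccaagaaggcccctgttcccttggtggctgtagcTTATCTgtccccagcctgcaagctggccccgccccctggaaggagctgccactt
Gfi1b: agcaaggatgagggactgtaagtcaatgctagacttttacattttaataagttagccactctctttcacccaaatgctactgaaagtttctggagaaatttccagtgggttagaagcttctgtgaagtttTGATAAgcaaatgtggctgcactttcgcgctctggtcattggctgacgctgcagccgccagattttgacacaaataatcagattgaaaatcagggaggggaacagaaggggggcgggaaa
Tal1: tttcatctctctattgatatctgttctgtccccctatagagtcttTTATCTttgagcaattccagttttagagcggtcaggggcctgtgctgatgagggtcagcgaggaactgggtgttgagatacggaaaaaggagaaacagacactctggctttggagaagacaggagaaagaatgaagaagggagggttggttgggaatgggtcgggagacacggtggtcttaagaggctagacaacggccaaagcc
The match nearest a start was that of Epor, whose first base lies 54 bases before it, followed by Klf1 at 80, Gfi1b at 120 and Tal1 at 205 bases. The CACC-type letters CCNCNCCC, which can overlap one another, occurred in 5 of the 7 windows, from 5 of the 6 genes, against 45.9% of all windows. The E-box letters CAGNTG occurred in 2 of the 7 windows, those of Klf1 and Epor, against 44.8% of all windows. The letters TGANTCA, part of the Nfe2 motif, occurred in 0 of the 7, against 6.75% of all windows.

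All 8 genes were lower in the sorted samples than in presort marrow. The genes Nfe2, Klf1, Tal1, Epor, Gata1 and Gfi1b fell by 7.12-fold to 10.2-fold, Lmo2 fell by 3.56-fold and Zfpm1 by 1.96-fold. Values are log2 intensities after robust multi-array averaging, differences are sorted minus presort, and a gene is called changed at an adjusted p under 0.05 (limma, Benjamini-Hochberg over 18193 genes). Under that rule 32.6% of all genes were called, 18.1% lower and 14.5% higher. Centring each array on its median over genes moved the median of all genes from -0.0021 to 0.23 and the share of calls that were higher from 44.4% to 66.7%. All 8 genes were lower under that scaling too. In bulk samples, fewer cells of a type and less RNA per cell cannot be told apart.

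Among the DNA-binding factors, Gata1 (probe set 1449232_at) read 11.05, 11.33 and 11.17 in presort replicates 1, 2 and 3 and 7.75, 8.41 and 8.28 in the sorted replicates. The groups lay far apart, with 2.65 log2 units between the lowest presort and the highest sorted array. The difference was -3.04 ± 0.18 (SE, n = 3 per group; limma adjusted p = 2.33e-05). Sorted replicate 1 was the lowest array.

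Klf1 (1418600_at), the activator of adult globin genes, read 12.38, 12.99 and 12.80 before the sort and 9.01, 9.89 and 9.73 after it. Presort replicate 1 was the lowest of its group, as was sorted replicate 1, so the pools kept their order and the groups did not overlap. Klf1 fell by 9.09-fold, a difference of -3.18 ± 0.25 (SE, n = 3 per group; limma adjusted p = 5.54e-05).

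Tal1 (1449389_at), required for blood formation and later for erythroid and megakaryocytic maturation, read 11.68, 11.70 and 11.71 in presort marrow. These 3 values were nearly equal (SD 0.015, n = 3), whereas the sorted values of 8.29, 8.56 and 8.96 spread more (SD 0.33, n = 3). The difference was -3.09 ± 0.17 (SE, n = 3 per group; limma adjusted p = 1.94e-05).

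Nfe2 (1452001_at), the haematopoietic subunit of the NF-E2 dimer, showed the largest fall of the 8 genes. Presort arrays read 11.50, 11.40 and 11.44 and sorted arrays 7.84, 8.07 and 8.37, a gap of 3.04 between the groups. It fell by 10.2-fold, a difference of -3.35 ± 0.15 (SE, n = 3 per group; limma adjusted p = 1.47e-05). Only 0.434% of all genes tested had a lower difference.

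Gfi1b (1420399_at), a repressor that recruits a histone demethylase complex, had the smallest fall of the 5 DNA-binding factors. It read 10.09, 10.49 and 10.21 in presort marrow and 7.13, 7.69 and 7.48 in sorted cells, with no overlap. The difference was -2.83 ± 0.17 (SE, n = 3 per group; limma adjusted p = 2.36e-05), which is 7.12-fold.

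Both cofactor genes fell less. Lmo2 (1454086_a_at), the LIM-domain bridge between Tal1 and Gata1 that is also used in other progenitors, read 12.49, 12.51 and 12.48 in presort marrow and 10.62, 10.17 and 11.20 in sorted cells. Presort arrays were close together (SD 0.015, n = 3), while the sorted arrays had the widest spread of any of the 8 genes (SD 0.52, n = 3). The difference was -1.83 ± 0.24 (SE, n = 3 per group; limma adjusted p = 0.000618). In Lmo2 sorted replicate 2, and not replicate 1, was the lowest array.

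Zfpm1 (1451046_at) read 10.63, 10.32 and 10.18 in presort marrow and 9.87, 9.06 and 9.29 in sorted cells. The lowest presort array lay only 0.32 above the highest sorted array, the narrowest gap among the 8 genes. The difference was -0.97 ± 0.22 (SE, n = 3 per group; limma adjusted p = 0.0104). The call was lost without pool 2 (difference -0.83, limma adjusted p = 0.0729) and without pool 3 (-1.01, limma adjusted p = 0.0728). Its other probe set, 1423603_at, read 7.53, 6.65 and 7.25 before the sort and 6.48, 6.01 and 6.46 after it, also without overlap. That probe set was lower by -0.83 ± 0.24 (SE, n = 3 per group; limma adjusted p = 0.0444 over 45037 probe sets), where 12.9% of all probe sets were called lower.

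Epor (1423344_at) read 10.20, 10.46 and 10.09 in presort marrow and 6.98, 7.11 and 7.43 in sorted cells, again with no overlap. It fell by 8.42-fold, a difference of -3.07 ± 0.16 (SE, n = 3 per group; limma adjusted p = 1.76e-05). No array put Epor, or the brightest probe set of any other of the 8 genes, below the median of all probe sets, 6.04. The medians of all named genes, each at its brightest probe set, were higher. They were 6.81, 6.88 and 6.92 in sorted replicates 1, 2 and 3, only a little below Epor.

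**Figure D1:**
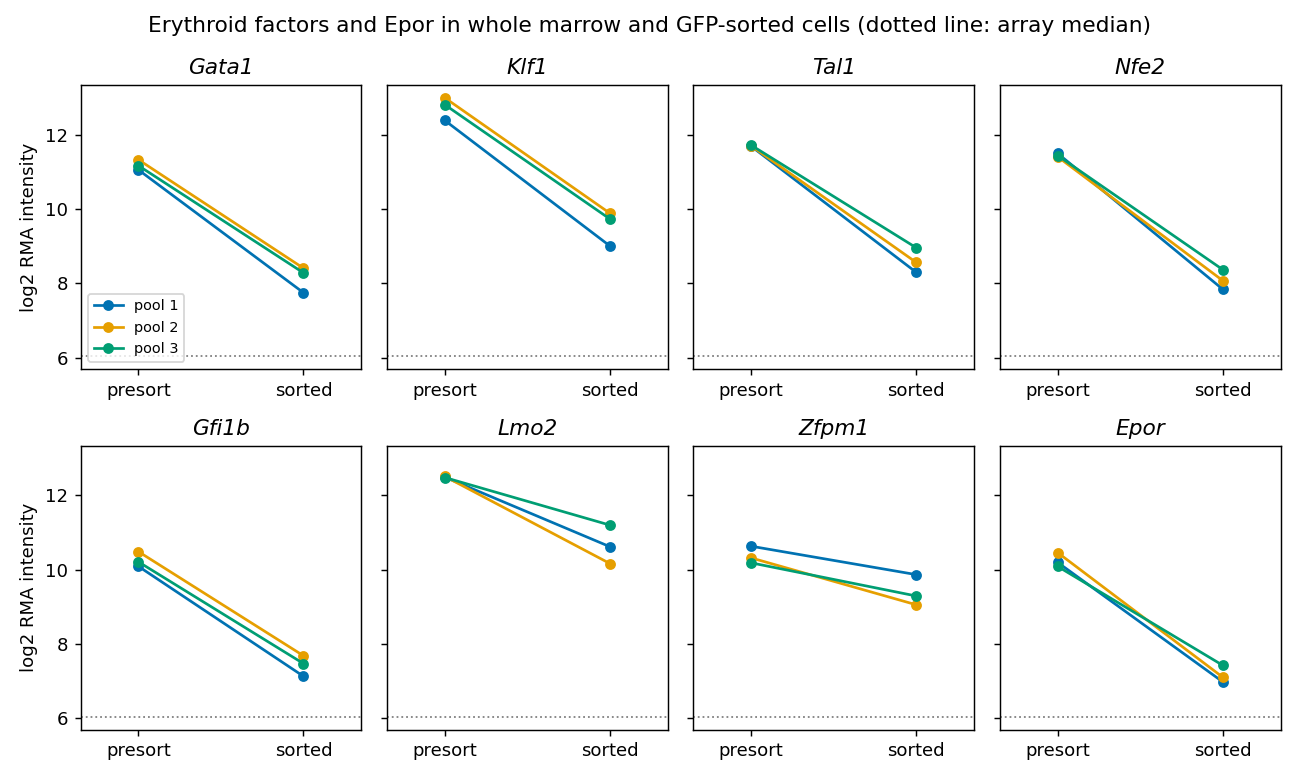
Log2 RMA intensity (vertical axis) of each of the 8 genes in presort and sorted samples, 1 panel per gene; each line joins the samples of 1 pool and the dotted line is the median of all probe sets, 6.04. Every line falls from presort to sorted, most shallowly for Zfpm1, and no point lies below the dotted line.

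All sorted arrays lay below all presort arrays in 8 of 8 genes, a pattern that 23.6% of all genes tested showed. The sorted arrays varied more than the presort arrays in 8 of 8 genes, with SDs of 0.23 to 0.52 against 0.015 to 0.31 (n = 3 each). The share of all genes with this pattern was not counted. Over all probe sets other than controls, sorted arrays also agreed less. Their correlations ran from 0.9826 to 0.9896, against 0.9897 to 0.9945 between presort arrays. The fall was smallest in pool 3 for 7 of the 8 genes and largest in pool 1 for 5. By size of fall the order was Nfe2, Klf1, Tal1, Epor, Gata1, Gfi1b, Lmo2 and Zfpm1. The pool differences of the first 6 ran from -3.66 to -2.66 and overlapped. Within pools, Gata1 fell more than Gfi1b in all 3, by a margin that was not tested, while the other neighbours among these 6 changed order from pool to pool. Those of Lmo2 (-1.87, -2.34 and -1.28) all lay above that range, and those of Zfpm1 (-0.76, -1.26 and -0.89) lay above those of Lmo2 by a narrow margin.

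The smaller falls of Lmo2 and Zfpm1 were compared with the mean fall of the other 6 genes within each pool, a contrast chosen after the values were seen. Lmo2 fell less by 1.45, 0.76 and 1.58 in pools 1, 2 and 3, a mean of 1.26 ± 0.44 (SD, n = 3). Zfpm1 fell less by 2.55, 1.85 and 1.97, a mean of 2.12 ± 0.38 (SD, n = 3). Since both genes were picked for their small falls, these values are a description only. An exact two-sided permutation test gave p = 0.1 for each, the smallest this design allows. After such a choice it cannot count as support. Probe sets can differ in how steeply they respond to RNA amount, which was not tested.

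**Figure D2:**
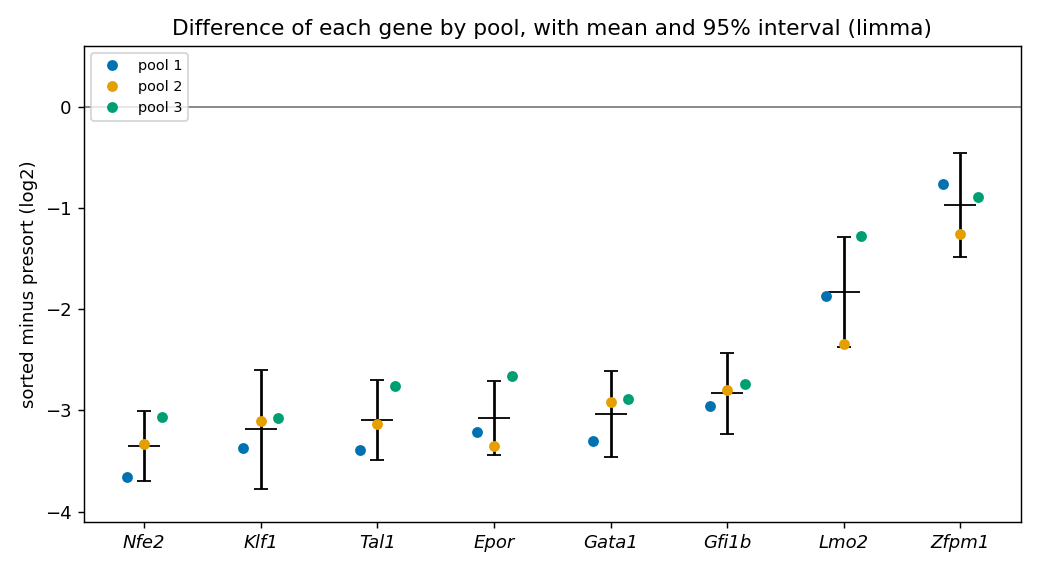
Sorted minus presort difference in log2 units (vertical axis) for each gene, ordered by size. Points are the differences within the 3 pools and the short bar is the mean. The vertical bar is the 95% interval from the unpaired limma fit, which does not measure the spread of the 3 points. The first 6 genes lie between -3.35 and -2.83, while Lmo2 (-1.83) and Zfpm1 (-0.97) lie closer to 0.

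RNA in the sorted samples was less even along transcripts. The 3′ minus 5′ log2 difference of the beta-actin control probe sets was 1.11, 0.95 and 0.81 in presort samples and 3.17, 1.54 and 1.43 in sorted samples. For Gapdh it was 1.99, 1.61 and 1.75 against 3.84, 2.13 and 2.44. The groups did not overlap for either control, with an exact two-sided permutation p = 0.1 each, the smallest this design allows. Sorted replicate 1 had the highest value and was also the lowest sorted array for 6 of the 8 genes. Without it all 8 genes were still lower, from -3.22 for Nfe2 to -1.20 for Zfpm1. With the beta-actin difference as a covariate all 8 were again lower, from -3.11 for Nfe2 to -1.44 for Zfpm1. Since that covariate did not overlap between the groups, the fit cannot separate RNA evenness from the sort.

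Relatives of the factors moved in both directions. Of 13 measured relatives used in other lineages, 4 were lower, 4 higher and 5 not called, with a median difference of 0.0023 against -3.06 for the 8 genes and -0.0021 for all genes. The higher count was 2 without pool 2 or pool 3. Gata2, the GATA factor of stem and mast cells, was lower by -1.32 ± 0.18 (SE; limma adjusted p = 0.000763), from 8.75 to 7.43. Gata3, a T cell factor, read near 4.96 on average and differed by 0.0023 (limma adjusted p = 0.996). Klf2, a quiescence factor of lymphocytes, and Klf4, its relative, were higher by 2.59 ± 0.39 and 2.10 ± 0.29 (SE; limma adjusted p = 0.00138 and 0.000949). Lmo1 was lower by -1.51 ± 0.11 (SE; limma adjusted p = 4.03e-05). Klf3, a repressor that shares CACC boxes with Klf1, was lower by -0.86 ± 0.12 (SE; limma adjusted p = 0.000774). Gfi1, the relative of Gfi1b in lymphoid and granulocytic cells, differed by -0.18 ± 0.31 (SE; limma adjusted p = 0.738), but by -0.57 without sorted replicate 1 (limma adjusted p = 0.0268), by -0.94 with the beta-actin covariate (limma adjusted p = 0.00793), and by 0.046 with median centring. The calls of Klf6, Lmo4 and Tal2 were each lost under at least 3 alternatives.

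**Figure D3:**
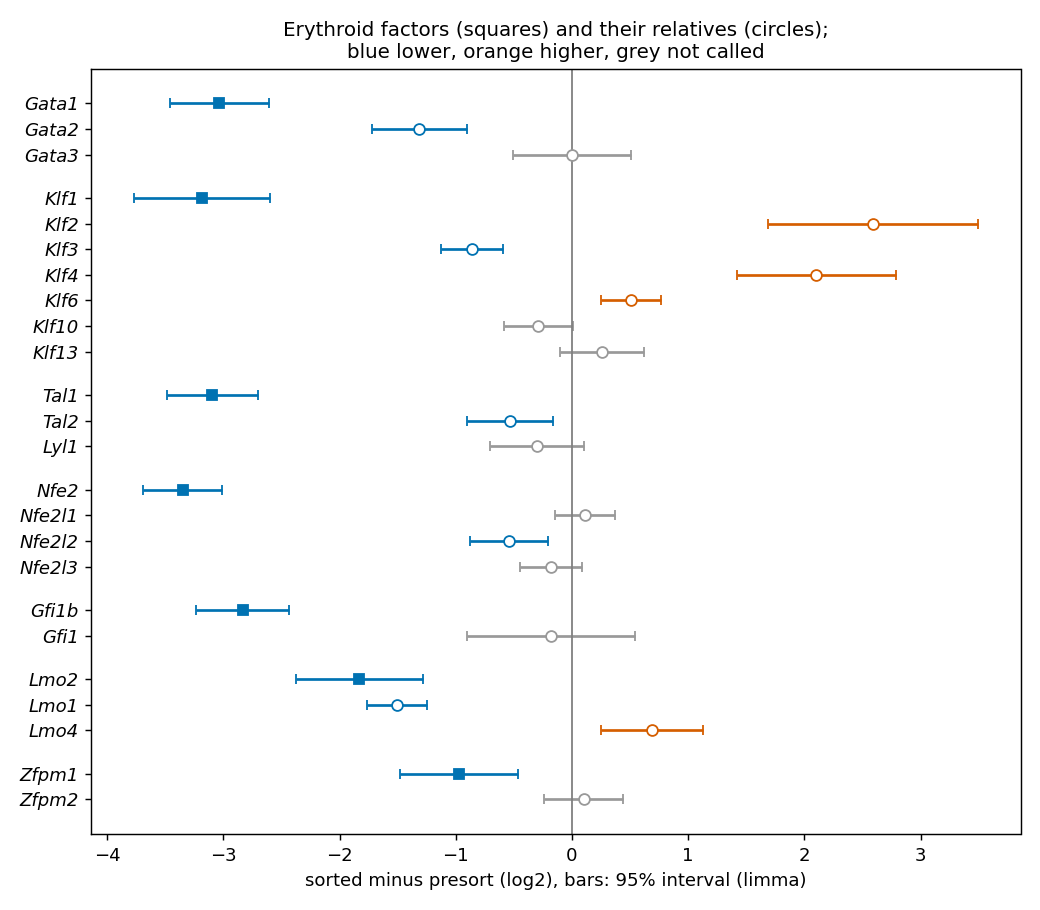
Sorted minus presort difference in log2 units (horizontal axis) with 95% limma intervals for 7 of the genes (squares) and their relatives (circles), grouped by family; blue is lower, orange higher and grey not called. Klf2 and Klf4 lie to the right of 0 and Klf1 far to the left, and Gfi1 lies near 0 while Gfi1b does not.

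Partners of the Tal1, Lmo2 and Gata1 complex went both ways: of 12 measured, 2 were lower, 6 higher and 4 not called (median 0.37). The E proteins, which dimerise with Tal1 and are also central to B cell development, were higher. Tcf3 rose from 10.08 to 11.87, a difference of 1.78 ± 0.16 (SE; limma adjusted p = 0.000110), Tcf12 by 1.55 ± 0.12 and Tcf4 by 1.42 ± 0.13. Cbfa2t3, a corepressor of the complex, rose by 1.75 ± 0.17 (SE; limma adjusted p = 0.000144). Ssbp4 and Ssbp2, which stabilise the complex, were lower by -1.21 and -0.94, and the Ssbp2 call was lost with the mean of its probe sets. The central adaptor Ldb1 differed by -0.14 ± 0.23 (SE; limma adjusted p = 0.720).

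Of 19 corepressor subunits used by Gfi1b and Zfpm1, 1 was lower, 2 higher and 16 not called (median 0.0057). The higher count was 1 without presort replicate 2, presort replicate 3, pool 2 or pool 3, and the lower count was 2 without sorted replicate 2. The 2 brightest subunits, Rbbp4 and Rbbp7, were not called (-0.43 and -0.22). With probe sets of the suffix _x_at or _s_at left out, both were called lower, by -1.22 and -0.48 (limma adjusted p = 0.00343 and 0.0105). Ctbp2, which binds Zfpm1, was the lower one, from 9.06 to 6.62, a difference of -2.44 ± 0.15 (SE; limma adjusted p = 2.36e-05). Kdm1a, the demethylase that Gfi1b recruits, was higher by 0.70 ± 0.11 (SE; limma adjusted p = 0.00208).

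Among 8 small Maf and cap-n-collar genes, 3 were lower, 3 higher and 2 not called (median -0.032). The lower count was 1 without pool 2 or pool 3, and the higher count was 1 when pool 1, pool 3, or the presort array of either or the sorted array of pool 3 was left out. Mafg, a small Maf partner of Nfe2, was lower by -1.68 ± 0.22 (SE; limma adjusted p = 0.000696). Bach2, a transcriptional repressor that acts in B cells and also pairs with small Maf proteins, rose from 11.61 to 13.84. The difference was 2.22 ± 0.29 (SE, limma adjusted p = 0.000688). The 4 smaller calls, of Maff, Mafk, Bach1 and Nfe2l2, were each lost under at least 3 alternatives, and Nfe2l2 turned to 0.16 with the mean of its probe sets.

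Other regulators of the erythroid program also split, with 5 lower, 4 higher and 8 not called of 17 (median -0.31), the higher count being 2 without pool 3. Sox6, which acts with Bcl11a on embryonic globin genes, fell with the 8 genes, from 11.11 to 7.96, a difference of -3.16 ± 0.27 (SE; limma adjusted p = 7.27e-05). Bcl11a itself, which B cells also need, rose by 1.55 ± 0.17 (SE; limma adjusted p = 0.000285), or 0.71 as its probe sets' mean. Myb, a progenitor factor, rose by 1.10 ± 0.15 (SE; limma adjusted p = 0.000855). Nfia was lower by -1.07 ± 0.14 (SE; limma adjusted p = 0.000636), or -0.47 with the mean of its probe sets.

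Of 27 measured genes listed for Epo receptor signalling, 7 were lower, 10 higher and 10 not called (median -0.071). The list is not confined to genes downstream of Epor, as it also holds other receptors and the Kit ligand gene Kitl. The higher count was 6 without pool 2 and 5 without pool 3. The 3 largest falls were those of receptors. Kit, the stem cell factor receptor that cooperates with Epor, differed by -3.28 ± 0.20 (SE; limma adjusted p = 2.33e-05), or -1.83 with the mean of its probe sets. Csf2rb, the shared beta chain of cytokine receptors, was lower by -2.18 ± 0.20 and Tfr2, which associates with Epor, by -2.05 ± 0.17. Pim2, a survival kinase, rose from 7.61 to 10.30, a difference of 2.69 ± 0.17 (SE; limma adjusted p = 2.75e-05). Stat5a, a transducer of the signal, differed by -0.07 ± 0.16 (SE; limma adjusted p = 0.796).

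Erythroid effector genes known as targets of these factors were mostly lower: of 34 measured of 43 listed, 30 were lower, 0 higher and 4 not called (median -2.26). By limma, 0 were higher also at an unadjusted p under 0.05, and 1 was called higher without sorted replicate 1, without pool 1 and under both other scalings. Car1, a red cell carbonic anhydrase, was lower by -3.65 ± 0.35 (SE; limma adjusted p = 0.000143). Icam4, a red cell adhesion protein, was lower by -3.40 ± 0.25, and Aqp1, the water channel, by -3.30 ± 0.23. The 4 not called were Cd24a, which B cells also carry (-0.10), Hba-a1 (-0.03), Steap3 (-0.52) and Slc2a1 (0.37). The Hba-a1 probe set read near 4.63, below the array median, and adult globin probe sets with several symbols were not used here. The median difference was -1.55 over the 17 brighter effector genes, 16 of them lower, and -2.34 over the 17 dimmer ones, 14 of them lower. Brightness was the mean over all 6 arrays, which a larger fall itself lowers. The 2 medians therefore cannot show whether the fall depends on brightness.

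**Figure D4:**
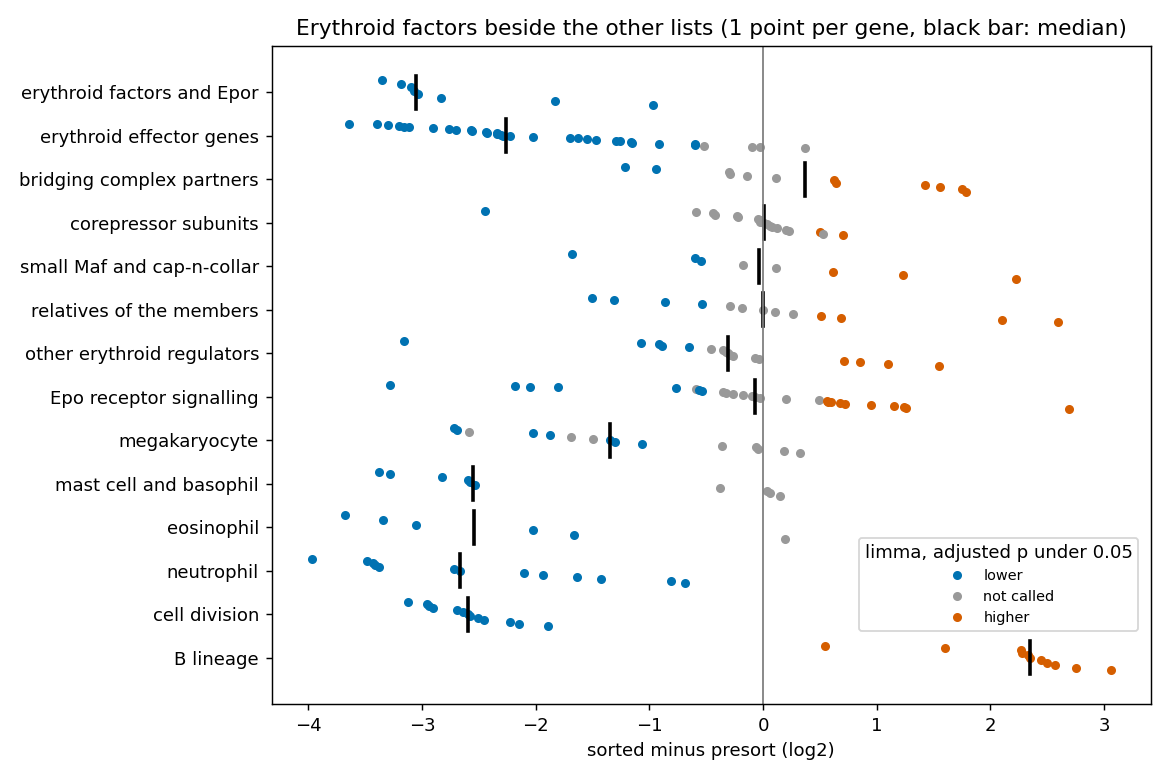
Sorted minus presort difference in log2 units (horizontal axis) for every measured gene of the 14 lists, 1 point per gene, coloured by its limma call; black bars are medians. The 8 genes and the effector genes lie left of 0 with medians of -3.06 and -2.26, as do neutrophil and cell division genes, while B lineage markers lie right of 0 with a median of 2.35.

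Presort marrow carried markers of the granulocytic, megakaryocytic and B lineages, and these moved in the same comparison. Neutrophil markers were lower in 13 of 13, with summed intensities of 211528 to 221723 in presort and 58449 to 109108 in sorted samples. Mast cell and basophil markers were lower in 6 of 10 (5701 to 8233 against 731 to 1314) and eosinophil markers in 5 of 6 (11338 to 22994 against 790 to 6076), or in 3 without presort replicate 2, presort replicate 3 or pool 3. Megakaryocyte markers were lower in 7 of 15, with sums of 3115 to 9876 against 1515 to 4026. These ranges overlap between pools, but the sum fell within each pool, from 3115 to 1515, from 9876 to 4026 and from 6969 to 1544. Without pool 3 only 2 megakaryocyte markers were lower, and 3 without presort replicate 2, presort replicate 3 or sorted replicate 3. Pf4 among them was not called (-1.69, limma adjusted p = 0.139). It was called with the pools as a block (limma adjusted p = 0.00678), with array weights (0.0420), and without presort replicate 1 (0.0402), sorted replicate 2 (0.0266) or pool 2 (0.0461). B lineage markers were higher in 11 of 11 (31871 to 46074 against 117560 to 122248), led by Ebf1 (3.06) and Rag1 (2.75). Ighm among them was higher by 0.55, but lower by -1.21 with its probe sets averaged (limma adjusted p = 0.00123), and its call was lost without pool 2 or pool 3. Cell division genes were lower in 13 of 13 (62790 to 63490 against 9734 to 16017). The part of each of these shifts in the falls of the 8 genes was not tested.

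The genes whose profile over the 6 arrays was most like the mean profile of the 8, by Pearson's r among 12120 brighter genes, were Ccnb2 (0.9998), Ctnna1 (0.9993), Psrc1 (0.9992), Mcm10 (0.9991) and Pold2 (0.9991). Ccnb2, a mitotic cyclin, fell by 2.60 on the log2 scale, and Ctnna1, the alpha catenin gene, by 0.69, a call lost with the mean of its probe sets. These r values describe 6 arrays in which the sorted and presort groups are far apart, and 1729 of the 12120 genes (14.3%) had an r over 0.95. Among the 8 themselves r to their mean profile ran from 0.9991 for Epor to 0.963 for Lmo2 and 0.840 for Zfpm1. Each of the 8 is part of that mean, so these values cannot be set beside those of the other genes.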

How the data were processed

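Affymetrix 3′ expression arrays were hybridised with RNA from 3 presort and 3 sorted samples. The deposited values are linear intensities from robust multi-array averaging (RMA), per the submitters' processing notes; log2 was taken here. RMA equalises the distributions of the arrays, so a change common to all genes cannot be seen, and the number of arrays limits the precision. No detection calls were used. Of 45101 probe sets, 64 controls were left out; 34945 had a single symbol, 932 several and 9160 none. Gene names come from the platform annotation.

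Differences were tested with limma 3.58.1 in R 4.3.3 (lmFit, eBayes, 4 residual degrees of freedom, unpaired), with Benjamini-Hochberg adjustment over 18193 genes and over 45037 probe sets for the probe set test. Scripts were tested on simulated data. Members and gene lists were chosen with earlier results of these data known. Named genes are the 8 members, in each list up to 4 with the largest called difference and up to 2 of the highest mean, drawn on as space allowed, and the 5 most alike in profile; Gata3, Gfi1, Hba-a1, Klf3, Klf6, Ldb1, Lmo4, Nfe2l2, Slc2a1, Ssbp2, Ssbp4, Stat5a, Steap3 and Tal2 were named after their values were seen. The labels state that same-numbered samples came from 1 pool, and their deviations correlated at 0.39, 0.20 and -0.026, so a fit with the pool as a replicate block was an alternative. Others were each array or pool left out, a filter on dim genes, both scalings, probe set rules, variance models and the beta-actin covariate. The renin gene is not reported here.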

Additional observations from a re-analysis of the deposited data

How the results depend on the processing

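All 8 genes kept their direction under the 18 alternatives, and all calls held except that of Zfpm1 without pool 2 or pool 3, when 7 of the 8 were called. Over the alternatives Zfpm1 ranged from -1.44 to -0.75 and Lmo2 from -2.11 to -1.58. With the pools as a replicate block, which changed no call of the 8, 3548 genes were lower and 2860 higher, against 3296 and 2629. Centring each array on its median gave 5162 higher genes, and leaving out pool 3 gave 1544; with 1 array or pool left out the counts ran from 2362 to 3256 lower and from 1544 to 2608 higher, and from 7 to 8 for the 8 genes. Over the other lists 95 genes were lower and 40 higher, against 77 to 96 and 25 to 41 with 1 array or pool left out. Of 468 list counts under alternatives, 422 stayed within 1.5 times, a number that includes counts that stayed at 0. The other 46 came from 12 of the 26 list counts. The cause of these moves was not tested.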
